A study of Mus musculus with 6 samples.

Results

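A set of 10 genes of the NRF2 antioxidant programme was followed in liver RNA of male Balb/c and Balb/cBy mice. They are Nfe2l2, Keap1, Nqo1, Gclc, Gclm, Hmox1, Srxn1, Txnrd1, Slc7a11 and Osgin1. They were chosen by name, with earlier results of these data known but by a rule that uses no strain difference, as the NRF2 factor, its inhibitor and target genes outside the conjugating enzymes. All 10 were measured, among 22180 genes in all. Each gene was read by the probe set that names it alone, and where several did so, the brightest of them on average was taken. The series holds 3 arrays of Balb/c and 3 of Balb/cBy, substrains of a common albino inbred line. All mice were male, received from 8 weeks of age a high-fat diet (fat gave 58% of the energy), stayed on it for 12 weeks and were 20 weeks old at sampling. The Balb/cBy substrain is known to carry a defective Acads, the gene of short-chain acyl-CoA dehydrogenase, and the labels name no other allele or agent. Mice on other diets were not analysed here, and the labels do not say which Balb/c substrain the controls were.

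NRF2, encoded by Nfe2l2, is a transcription factor that is held in the cytosol and marked for degradation by KEAP1 as long as the cysteines of KEAP1 are reduced. Oxidants and electrophiles modify those cysteines, NRF2 then reaches the nucleus, pairs with small MAF proteins and binds antioxidant response elements near its target genes. In liver these targets supply glutathione, reduce thioredoxin and peroxiredoxins, and break down quinones and heme. Much of this control acts on the NRF2 protein, which arrays do not measure.

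The arrays had medians of the log2 values between 7.66 and 7.74, which the deposited processing (RMA) brings close together. Pairwise correlations over all probe sets, which largely follow differences between probe sets, were between 0.97 and 0.99. Neither value tests the quality of an array. Array weights estimated from these same values ran from 0.47 in Balb/cBy replicate 1 to 2.53 in Balb/cBy replicate 3. The hepatocyte gene Alb, albumin, stood between 14.16 and 14.22 in all 6 arrays. Of 8 hepatocyte markers 4 were higher and 4 lower in Balb/cBy, and those with the smallest p were Serpina1a, an alpha-1 antitrypsin, at 0.55 (SE 0.20) and the transcription factor Hnf4a at 0.17 (SE 0.12). The values are array signals and not counts, so read depth does not apply. The precision rests on 3 arrays per strain and on the spread among them. Because whole liver was used, fewer cells of a type and less RNA per cell cannot be told apart.

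The sequences before the start sites show where the core of the antioxidant response element occurs in the members. RefSeq windows on build GRCm38.p6, from 250 bases before to 50 bases after a start site, were held for 8 of the 10 members in 10 windows, and none was held for Gclc or Hmox1. The core was searched on both strands as TGACNNNGC and as TGAGNNNGC. The AP-1 site TGACTCA, which can overlap the second form, was searched as well. Of the 10 windows, 6 held either form of the core, against 27.8% of 32851 windows of the same length over all genes. The first form was in 4 of 10 windows (12.4% of all windows), the second in 3 of 10 (17.6%) and TGACTCA in 2 of 10 (5.2%). The 250 bases before the start are printed for the 4 members whose values are followed most closely and whose window has a match, 5′ to 3′ on the strand of the gene, with matches in capitals.
Nfe2l2, chr2:75704664-75704913, minus strand: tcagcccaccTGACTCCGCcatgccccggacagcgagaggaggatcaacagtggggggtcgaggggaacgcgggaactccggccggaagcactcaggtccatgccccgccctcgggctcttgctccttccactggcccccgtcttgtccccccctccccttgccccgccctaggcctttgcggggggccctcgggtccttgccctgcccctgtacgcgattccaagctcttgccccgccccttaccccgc
Gclm, chr3:122245307-122245556, plus strand: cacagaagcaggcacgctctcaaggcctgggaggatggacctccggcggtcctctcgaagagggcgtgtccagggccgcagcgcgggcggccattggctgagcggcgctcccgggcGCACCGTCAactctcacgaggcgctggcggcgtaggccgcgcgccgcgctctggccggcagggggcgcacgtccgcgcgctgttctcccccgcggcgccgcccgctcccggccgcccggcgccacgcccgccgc
Srxn1, chr2:152105274-152105523, plus strand: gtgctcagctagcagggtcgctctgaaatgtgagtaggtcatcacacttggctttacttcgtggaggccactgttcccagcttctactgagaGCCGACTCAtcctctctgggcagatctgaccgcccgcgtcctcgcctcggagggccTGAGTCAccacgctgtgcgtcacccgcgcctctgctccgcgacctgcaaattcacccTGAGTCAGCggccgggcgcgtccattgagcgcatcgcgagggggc
Osgin1, chr8:119436897-119437146, plus strand: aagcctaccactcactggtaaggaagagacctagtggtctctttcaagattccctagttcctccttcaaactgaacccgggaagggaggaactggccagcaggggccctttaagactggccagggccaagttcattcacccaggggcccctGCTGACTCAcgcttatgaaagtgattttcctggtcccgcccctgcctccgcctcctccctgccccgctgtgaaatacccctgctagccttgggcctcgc
The Nfe2l2 match reads TGACTCCGC and begins 240 bases before the start, and that of Gclm reads TGACGGTGC on the opposite strand, 134 bases before it. Srxn1 and Osgin1 share the 9 letters TGAGTCAGC, in which the core and the AP-1 site overlap, beginning 45 bases before the start in Srxn1 and, read on the opposite strand, 99 bases before it in Osgin1. Srxn1 had further matches of the core on the opposite strand, TGAGTCGGC at 158 bases before the start and TGACCTAGC at position 29 after it, outside the stretch printed, and another AP-1 site 102 bases before the start. In 1 of 3 windows of Txnrd1 the letters on the opposite strand were TGACAAAGC, and in Slc7a11 TGAGAAAGC. A match is a description of letters and not a bound site. The windows of Keap1 and Nqo1 had no match. Sequence outside the windows was not searched, so these genes may have matches farther from the start.

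The 10 genes did not differ in a common direction between the strains. Hmox1 and Srxn1 had the largest differences towards Balb/cBy, 0.41 and 0.38 on the log2 scale, and Gclc and Gclm the largest towards Balb/c, -0.27 and -0.24. Nfe2l2 and Keap1 had nearly equal means in the strains. With limma over all genes 0 of the 10 members passed an adjusted p of 0.05, as did 0 of 22180 genes (0%), and each member had an adjusted p of 0.999. An unadjusted p under 0.05 was reached by 0 of 10 members and by 3.76% of all genes, 2.59% upward and 1.16% downward in Balb/cBy. In 4 of 15 alternative settings 2 or 3 members reached it, namely Gclm, Hmox1 or Srxn1, in 3 settings each. Over all 22180 genes it was reached by 632 to 1828 in those 4 settings, against 833 in the main fit. The groups did not overlap for 1 member, Srxn1, while 7.83% of all genes had no overlap 4.32% being higher and 3.51% lower in Balb/cBy. In Balb/cBy 4 members were higher and 6 lower, with a median difference of -0.0018, and over all genes 49.1% were higher and 50.9% lower, with a median of -0.0028. A difference of at least 0.2 in either direction was seen in 5 of 10 members and in 14.2% of all genes. The members also had a larger spread within a strain. Their median SD was 0.22 in Balb/c and 0.15 in Balb/cBy, against 0.12 and 0.13 over all genes. The arrays of Balb/c spanned more than the strain difference in 9 of 10 members and in 86.7% of all genes. The median moderated standard error (SE) was 0.14 for the members and 0.12 for all genes.

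**Figure D1:**
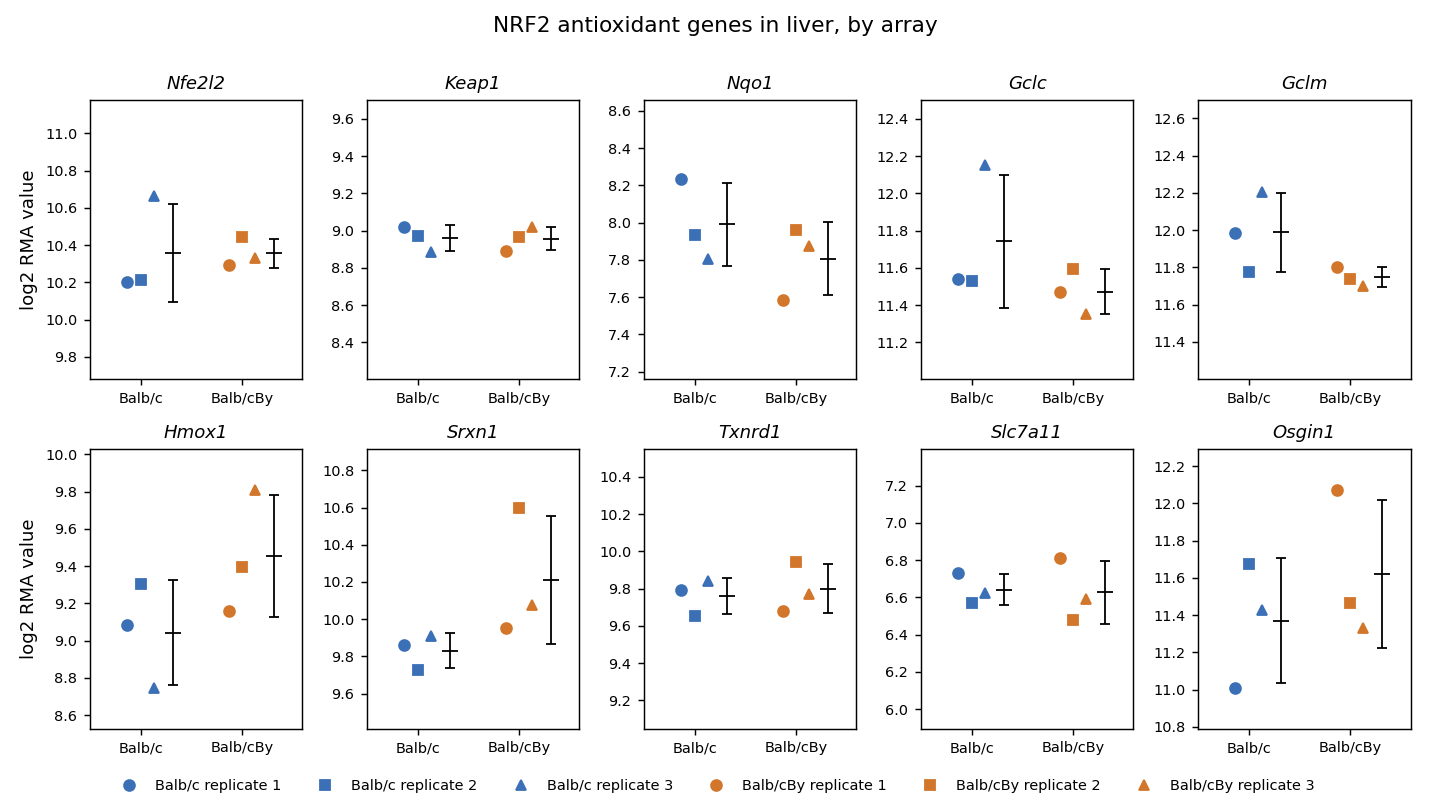
Log2 RMA value of each gene (vertical axis, the same span of 1.5 in every panel) in the 3 Balb/c and 3 Balb/cBy arrays (horizontal axis), with the group mean and SD in black. Only in the Srxn1 panel do all Balb/cBy arrays lie above all Balb/c arrays, and Balb/c replicate 3 is the highest array for Nfe2l2, Gclc and Gclm.

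**Figure D2:**
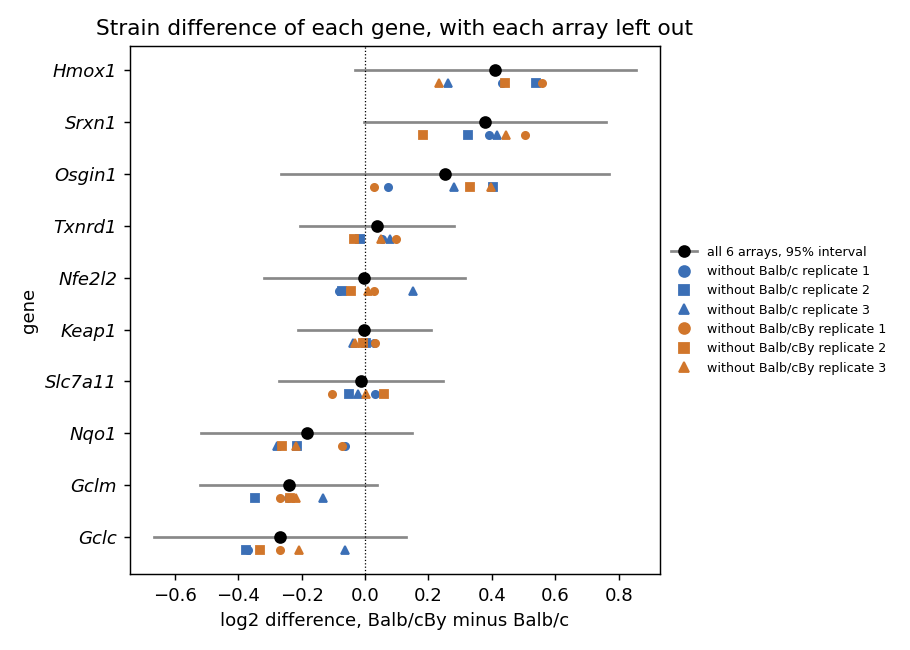
Log2 difference of Balb/cBy minus Balb/c for each gene (black points, grey 95% intervals from limma, 6 arrays) and the same difference with each array left out (coloured symbols below). All 10 intervals include 0, and the estimates for Gclc, Osgin1 and Srxn1 move most when a single array is left out.

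Nfe2l2 and Keap1 had close means in the strains, with intervals that include differences in either direction. Nfe2l2 read 10.20, 10.21 and 10.66 in Balb/c replicates 1, 2 and 3, and 10.29, 10.44 and 10.33 in Balb/cBy replicates 1, 2 and 3. Balb/c replicate 3 stood highest of all 6 arrays, and the Balb/cBy arrays lay between it and the other Balb/c arrays. The difference was -0.0018 (SE 0.14), with a 95% interval from -0.32 to 0.32. Without Balb/c replicate 3 the difference of Nfe2l2 was 0.15. Keap1 read 9.02, 8.97 and 8.88 in Balb/c and 8.89, 8.96 and 9.02 in Balb/cBy, and it had the narrowest range of the 10 members over the arrays, 0.14. Its difference was -0.0019 (SE 0.09, 95% interval -0.21 to 0.21). A second probe set for Keap1, with a lower mean, gave a difference of 0.07, its means being 7.35 ± 0.080 for Balb/c and 7.43 ± 0.16 for Balb/cBy (SD, n = 3 each).

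Both subunits of glutamate-cysteine ligase had lower means in Balb/cBy, with differences that were smaller once a single Balb/c array was left out. Gclc, the catalytic subunit, which carries out the first and rate-limiting step of glutathione synthesis, read 11.54, 11.53 and 12.15 in Balb/c and 11.47, 11.60 and 11.35 in Balb/cBy. Balb/c replicate 3 lay above the other 5 arrays, and these 5 overlapped between strains. The difference was -0.27 (SE 0.17), a fold of 0.83 for Balb/cBy over Balb/c, and it was -0.06 without Balb/c replicate 3. Gclm, the modifier subunit that makes the enzyme more efficient, read 11.98, 11.78 and 12.20 in Balb/c against 11.80, 11.74 and 11.70 in Balb/cBy. All Balb/cBy arrays were close together, and only Balb/c replicate 2 overlapped with them. The difference of Gclm was -0.24 (SE 0.12, fold 0.85), or -0.13 without Balb/c replicate 3. Slc7a11, the cystine carrier that brings in the limiting amino acid, read 6.73, 6.57 and 6.62 in Balb/c and 6.81, 6.48 and 6.59 in Balb/cBy. These values overlapped throughout, with a difference of -0.01 (SE 0.11, 95% interval -0.27 to 0.24). Slc7a11 was the 1 member under the 25th percentile of mean level, 7.25, and Nqo1 lay under the median of 8.03. The second probe set for Slc7a11 gave a difference of 0.06 at means of 5.82 ± 0.077 and 5.87 ± 0.033 (SD, n = 3 each).

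Of the thiol-reducing members, sulfiredoxin had the larger difference in mean, 0.38, which did not pass and was smaller than the 0.65 spanned by its Balb/cBy arrays, and thioredoxin reductase had a difference of 0.04. Srxn1, which restores overoxidised peroxiredoxins, read 9.86, 9.73 and 9.91 in Balb/c and 9.95, 10.60 and 10.07 in Balb/cBy. All Balb/cBy arrays were above all Balb/c arrays, but Balb/cBy replicate 1 exceeded Balb/c replicate 3 by less than the range of the Balb/c arrays, which was 0.18. The group means were 9.83 ± 0.095 and 10.2 ± 0.34 (SD, n = 3 each), a difference of 0.38 (SE 0.17, 95% interval -0.0040 to 0.76) and a fold of 1.30. The exact permutation p (two-sided) was 0.1, the smallest that 3 arrays against 3 allow. Without Balb/cBy replicate 2, the highest array, the difference of Srxn1 was 0.18. Txnrd1, the cytosolic thioredoxin reductase, read 9.79, 9.65 and 9.84 in Balb/c and 9.68, 9.94 and 9.77 in Balb/cBy. Balb/cBy replicate 2 was again the highest array, and the groups overlapped, with a difference of 0.04 (SE 0.11, 95% interval -0.21 to 0.28).

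Nqo1 and Osgin1 varied among mice of a strain as much as between strains. Nqo1, a quinone reductase widely used as a readout of NRF2, read 8.24, 7.93 and 7.80 in Balb/c and 7.58, 7.96 and 7.88 in Balb/cBy. The highest and the lowest array were replicates 1 of the strains, and the others overlapped. The difference was -0.18 (SE 0.15). Leaving out replicate 1 of Balb/c gave -0.06, and leaving out replicate 1 of Balb/cBy gave -0.07. Osgin1, an oxidative stress-induced growth inhibitor, read 11.01, 11.67 and 11.43 in Balb/c and 12.07, 11.46 and 11.33 in Balb/cBy. It had the widest range of the members over the 6 arrays, 1.063, again between replicates 1 of the strains, and the remaining arrays overlapped. The difference of Osgin1 was 0.25 (SE 0.23), and it came to 0.03 when replicate 1 of Balb/cBy was left out and to 0.07 when replicate 1 of Balb/c was.

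Hmox1, the inducible heme oxygenase, had the largest mean difference of the members. The arrays at its extremes were also at the extremes of the linear sums of markers of some non-hepatocyte cell types, macrophages among them, but not of all. Hmox1 read 9.08, 9.30 and 8.75 in Balb/c and 9.16, 9.40 and 9.81 in Balb/cBy. Balb/c replicate 3 was the lowest and Balb/cBy replicate 3 the highest array, and Balb/c replicate 2 lay above Balb/cBy replicate 1, so the groups overlapped. The difference was 0.41 (SE 0.19, 95% interval -0.03 to 0.85), a fold of 1.33. Leaving out replicate 3 of Balb/c gave 0.26, and leaving out replicate 3 of Balb/cBy gave 0.23. Heme oxygenase 1 is abundant in Kupffer cells, the resident macrophages of the liver, which take up senescent red cells. Of 13 Kupffer cell and macrophage markers 8 were higher in Balb/cBy, with a median difference of 0.12, and 0 passed over all genes with limma. On the linear scale the sum of these markers ran from 11290 to 18536 in Balb/c and from 14953 to 18944 in Balb/cBy. The lowest sum belonged to Balb/c replicate 3 and the highest to Balb/cBy replicate 3, the arrays that were lowest and highest for Hmox1. By the mean of centred log2 values these markers were also lowest in Balb/c replicate 3 (-0.44). On that scale Balb/c replicate 2 was highest (0.25), with Balb/cBy replicate 3 at 0.24. Balb/c replicate 3 and Balb/cBy replicate 3 were also lowest and highest for the summed endothelial markers (7309 and 8616) and the summed neutrophil markers (1669 and 2034). The same held for the 1 erythroid marker measured, Slc4a1 (345 and 449). By the centred mean the endothelial markers were instead lowest in Balb/cBy replicate 1 (-0.17). The summed stellate cell markers were highest in Balb/cBy replicate 3 as well, at 11310, with 7 of 8 of them higher in Balb/cBy. Their sum was lowest in Balb/c replicate 2, at 7396, with Balb/c replicate 3 close to it at 7426. By the centred mean the stellate markers were lowest in Balb/c replicate 3 (-0.23) and highest in Balb/cBy replicate 3 (0.25). Lymphocyte markers went the other way, with 7 of 8 measured lower in Balb/cBy, and their sum was lowest in Balb/cBy replicate 3, at 1525. Of 5 measured cholangiocyte markers 4 were lower in Balb/cBy. On the summed scale the extreme arrays of Hmox1 were thus shared by macrophage markers and by those of some other cell types. Vsig4, a complement receptor of Kupffer cells, differed by 0.41 (SE 0.16), and Mpeg1, a perforin-like protein of macrophages, by 0.35 (SE 0.12). The other direction was seen in 5 of the 13, of which these were named after their values were seen: Adgre1, an adhesion receptor of macrophages, at -0.37 (SE 0.29), the scavenger receptor Marco at -0.24 (SE 0.15), and Cd163, a receptor for haemoglobin bound to haptoglobin, at -0.10 (SE 0.21). Of 4 measured markers of lipid-associated macrophages all 4 were higher, with a median of 0.33, and their sums were 1327 to 1423 in Balb/c and 1593 to 1763 in Balb/cBy. Gpnmb differed by 0.36 (SE 0.10) and Cd9 by 0.36 (SE 0.11). The part of these cell type markers in the difference of Hmox1 was not tested.

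**Figure D3:**
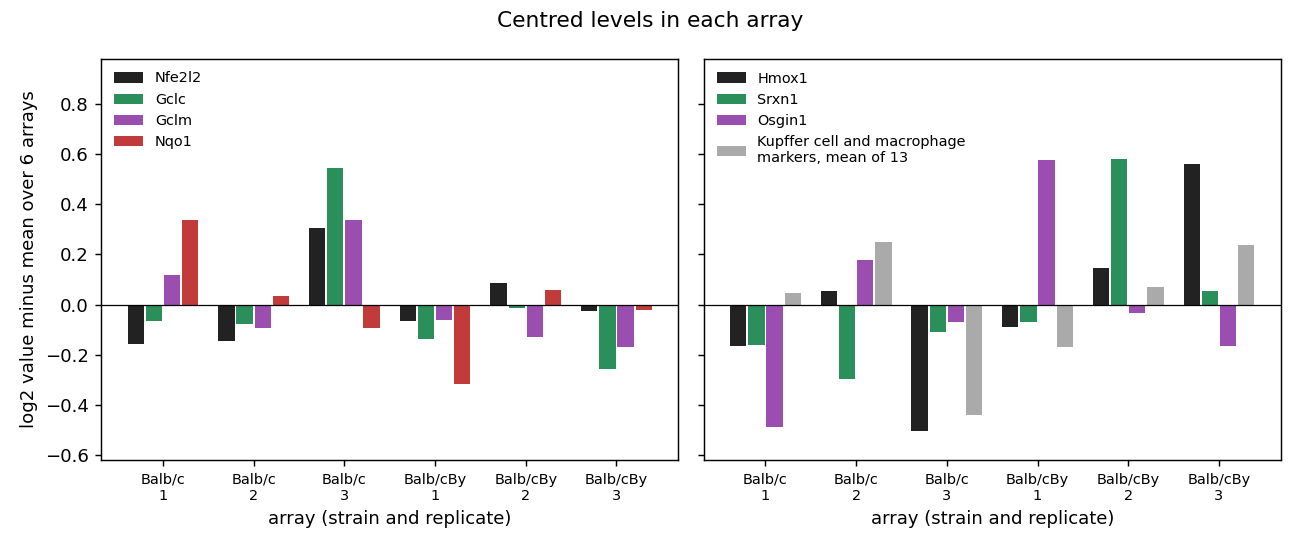
Log2 value of each gene minus its mean over the 6 arrays (vertical axis) in each array (horizontal axis), with the mean of the 13 Kupffer cell and macrophage markers as grey bars on the right. Nfe2l2, Gclc and Gclm are all highest in Balb/c replicate 3, in which Hmox1 and the macrophage markers are lowest.

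The members that stood apart from the other arrays of a strain are given array by array. In Balb/c replicate 3, Nfe2l2, Gclc and Gclm lay at least 0.3 above the mean of the other Balb/c arrays, and Hmox1 at least 0.3 below. Over all genes 10.4% lay that far above and 7.99% that far below in that array. Nfe2l2 was higher there by 0.46, Gclc by 0.62 and Gclm by 0.32, while Hmox1 was lower, with a deviation of -0.45. Nqo1, Srxn1, Txnrd1 and Osgin1, also targets of NRF2, stayed within 0.3 of the other Balb/c arrays there. Nqo1 was close to that bound and lower, at -0.28, and Srxn1, Txnrd1 and Osgin1 were at 0.12, 0.12 and 0.08. In Balb/c replicate 2 Hmox1 and Osgin1 lay above and Gclc and Gclm below by that margin. In Balb/cBy replicate 1 Osgin1 was above, and Nqo1, Hmox1 and Srxn1 were below, in an array where 21.9% of all genes were that far from the others of its group. Balb/cBy replicate 2 was apart in 1 member, Srxn1, and Balb/cBy replicate 3 in Hmox1, above, and Osgin1, below. In Balb/c replicate 1 Nqo1 lay above and Osgin1 below. Of all genes 10.5%, 15.5% and 18.3% were that far apart in Balb/c replicates 1, 2 and 3, and 21.9%, 15.5% and 9.49% in Balb/cBy replicates 1, 2 and 3, beside 2, 4, 4, 4, 1 and 2 of the 10 members in the same order. Counts of 1 or 2 members are thus near the background. The median SD of the members was 0.22 in Balb/c and 0.15 in Balb/cBy, against 0.12 and 0.13 over all genes. A fixed bound of 0.3 takes no account of this larger spread, which also limits what counts of 4 show.

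Partners and regulators of NRF2 had a median difference of 0.03, with 13 of 20 measured genes higher in Balb/cBy and 0 past the threshold over all genes. Syvn1, a ubiquitin ligase of the endoplasmic reticulum that has been described as acting on NRF2, read 9.11, 9.27 and 9.42 in Balb/c and 10.05, 10.20 and 10.04 in Balb/cBy. The strains were well separated, by 0.83 (SE 0.11, adjusted p = 0.166 in limma). With arrays weighted by a quality estimated from these same values Syvn1 passed (0.87, adjusted p = 0.0325 in limma). Over the other 14 alternative settings its adjusted p ran from 0.161 to 0.999, and it passed in none. Sesn2, a sestrin that promotes the removal of KEAP1, differed by -0.19 (SE 0.12). Bach1, a repressor that competes with NRF2 at Hmox1, was named after its values were seen. It read 9.23, 9.50 and 9.64 in Balb/c and 9.15, 10.30 and 9.73 in Balb/cBy, an overlapping set with a difference of 0.27 (SE 0.26).

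Other genes of glutathione synthesis and use were higher in 16 of 23 cases, with a median of 0.06. Gpx3, the secreted glutathione peroxidase, differed by 0.35 (SE 0.12), and its groups did not overlap. Gss, glutathione synthetase, which acts right after the ligase of Gclc and Gclm, differed by 0.23 (SE 0.11). Slc3a2, the heavy chain that pairs with Slc7a11, differed by 0.21 (SE 0.12) and was named after its values were seen. Glutathione S-transferases, which use the product, were higher in 12 of 18 cases with a median of 0.08, Gstt1 differing by 0.36 (SE 0.16) and Gstk1 by 0.33 (SE 0.16). Thioredoxin and peroxiredoxin genes were higher in 9 of 15 cases with a median of 0.07. Msra, a methionine sulfoxide reductase, differed by 0.20 (SE 0.09) without overlap, and Prdx2, a peroxiredoxin that sulfiredoxin can restore, by 0.17 (SE 0.12). In none of these lists did a gene pass over all genes with limma, and at an unadjusted p under 0.05 there was 1 of 23 in the glutathione list, Gpx3, and 0 in the others, where 3.76% of all genes reached it.

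Genes that supply NADPH, which both thiol systems consume, were higher in 5 of 9 cases, with a median of 0.02. Idh1, the cytosolic isocitrate dehydrogenase, differed by -0.17 (SE 0.11), and Me1, malic enzyme, by -0.36 (SE 0.31) with a wide spread in both strains, at 10.6 ± 0.53 and 10.2 ± 0.51 (SD, n = 3 each). Iron and heme genes were higher in 6 of 11 cases with a median of 0.06. Hmox2, the constitutive heme oxygenase, differed by 0.26 (SE 0.14), and Tfrc, the transferrin receptor, by 0.41 (SE 0.25). Carbonyl and quinone detoxification had 5 of 12 genes higher and a median of -0.04, with Aldh3a2, a fatty aldehyde dehydrogenase, at -0.32 (SE 0.19) and Akr1a1, an aldehyde reductase, at 0.14 (SE 0.11). Superoxide and peroxide enzymes had 5 of 11 higher and a median of -0.01. Cat, catalase, differed by -0.12 (SE 0.09) without overlap, and Ncf4, a subunit of the phagocyte oxidase, by 0.18 (SE 0.13).

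ATF4 is a second regulator of Slc7a11, and genes under ATF4 were measured beside it. Of 14 genes in this list, which includes Atf4 itself, 8 were higher and 6 lower, with a median of 0.10. An unadjusted p under 0.05 in limma was reached upward by 4, Atf4, Ddit3, Asns and Slc7a5, where 2.59% of all genes did. Of the 6 lower, Fgf21 differed by -0.21 (SE 0.10) without overlap and Trib3 by -0.01 (SE 0.08), both named after their values were seen. Asns, asparagine synthetase, differed by 0.39 (SE 0.12), and Slc7a5, an amino acid carrier, by 0.38 (SE 0.12), both without overlap of the groups, while Slc7a11 differed by -0.01. No gene of the 9 lists passed over all genes. Together these lists held 133 measured genes of 150, of which 79 were higher and 54 lower (49.1% and 50.9% of all genes), with a median of 0.03. Of the 133, 116 lay above the median of mean level. Over all genes above that level the median difference was 0.02, against -0.0028 over all 22180 genes. The groups did not overlap for 14 of the 133, where 7.83% of all genes had no overlap.

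**Figure D4:**
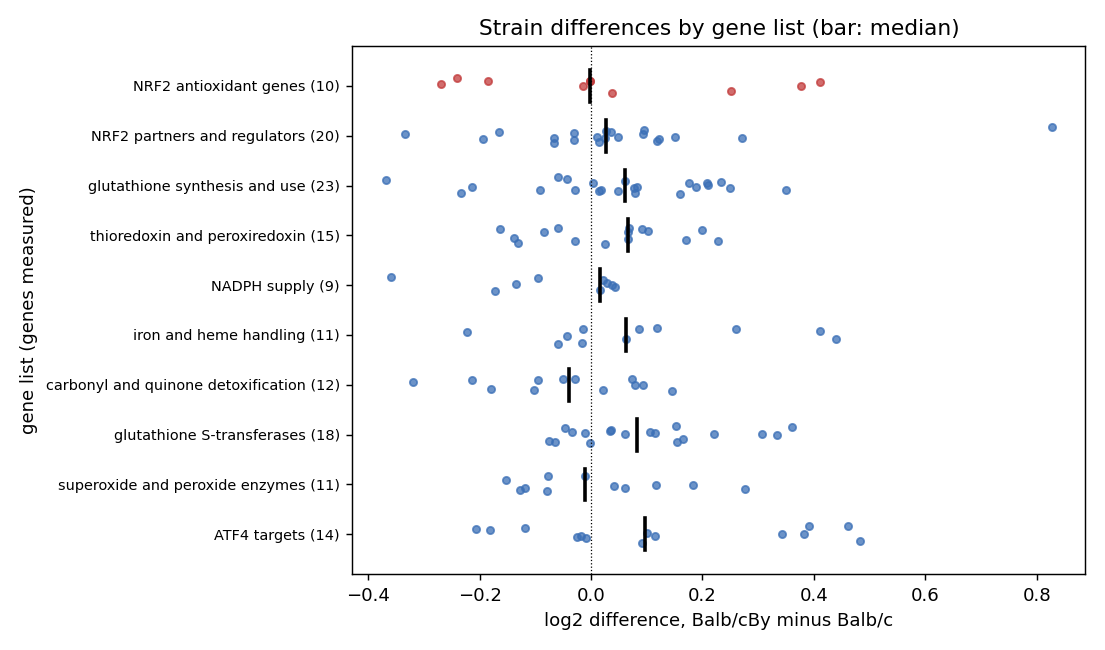
Log2 difference of Balb/cBy minus Balb/c (horizontal axis) for each gene of the NRF2 antioxidant set (red) and of 9 lists around it (blue), with the median of each list as a black bar. The medians lie between -0.04 and 0.10, and Syvn1, at 0.83, is the point farthest from 0.

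The genes most like Osgin1, the member with the widest range, were sought over all genes by the root mean square difference of the centred log2 values over the 6 arrays. Tm4sf20 came closest at 0.095, followed by Atp11a at 0.12, Gm5476 at 0.12, Vmn1r57 at 0.12 and 1700025N23Rik at 0.13, where Osgin1 itself departed from its own mean by 0.33. All 5 were highest in Balb/cBy replicate 1 and lowest in Balb/c replicate 1, as was Osgin1. Hmox1 had nearly the same range, 1.063, and was treated likewise after this was seen. Its closest genes were Clec4n at 0.11, Lgmn at 0.12, Gsn at 0.12, Serpinh1 at 0.12 and Fcna at 0.12, where Hmox1 departed from its own mean by 0.32. All 5 were lowest in Balb/c replicate 3 and highest in Balb/cBy replicate 3. With 6 arrays and 22180 genes, close profiles arise in any case, and these are a description of the arrays.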

How the data were processed

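The authors hybridised liver RNA (500 ng each, per the labels' protocols) to 6 Affymetrix arrays, called biological replicates by the labels, and deposited log2 values made with RMA, per the submitters' processing notes. RMA corrects background, equalises array distributions and summarises the probes of a set, which can compress differences of dim probe sets. That the scale is log2 follows from the range of the values. Build and array annotation: not given in the sources used here. Of 41345 probe sets, 23521 had 1 gene symbol in GEO's platform annotation, 1814 several and 16010 none. Highest-mean probe sets left 22180 genes, unfiltered. Of the 10 members 2 had a second probe set.

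Balb/cBy minus Balb/c was fitted over all genes with limma 3.58.1 in R 4.3.3 (lmFit, eBayes, no covariate), with Benjamini-Hochberg adjustment and a threshold of 0.05. Levels are means ± SD, differences carry the moderated SE, and intervals are 95%. Lists are described by counts and medians. On simulated data for this comparison (22180 genes, 50 changed at each size) the fit recovered 20% of genes changed by 0.5, 94% of those changed by 1 or 2 and 100% of those changed by 4, and called 1 unchanged gene. The simulated noise was normal and independent between genes and arrays, and the changed genes themselves ease the adjusted threshold. In the measured values 0 genes passed, so these shares need not hold for them. Members, lists, named genes (2 of each list with the smallest p) and alternatives were chosen with earlier results of these data known. Promoter windows were matched by symbol.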

Additional observations from a re-analysis of the deposited data

How the results depend on the processing

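Over 15 alternative settings, 0 of the 10 members passed an adjusted p of 0.05 in limma, with the smallest adjusted p at 0.537, for Hmox1 with array weights. An unadjusted p under 0.05 was reached by 3 members with array weights (Gclm, Hmox1, Srxn1), by 2 with quantile normalization repeated (Gclm, Srxn1), by 2 when replicate 2 of Balb/c was left out (Gclm, Hmox1), by 2 when replicate 1 of Balb/cBy was left out (Hmox1, Srxn1), and by 0 in the other 11 settings. Of all 22180 genes it was reached by 1761 with array weights and 939 with quantile normalization repeated. Without Balb/c replicate 2 it was reached by 632, and without Balb/cBy replicate 1 by 1828, against 833 in the main fit. Without moderation of the variance 0 genes passed, and 724 had an unadjusted p under 0.05. The differences of Nqo1, Gclc, Gclm, Hmox1, Srxn1 and Osgin1 kept their direction in every setting that tested them. The other 4 members, whose differences were within 0.04 of 0, changed sign. Nfe2l2 was 0.0152 with arrays centred on their medians and 0.0643 with array weights, and ran from -0.0810 to 0.15 with an array left out. Keap1 was 0.0151 with centred arrays, 0.0362 as the mean of its probe sets and 0.0049 with array weights, and ran from -0.0395 to 0.0315 with an array left out. Txnrd1 was -0.0304 with quantile normalization repeated, and ran from -0.0342 to 0.0964 with an array left out. Slc7a11 was 0.0033 with centred arrays, 0.0182 with quantile normalization repeated and 0.0211 as the mean of its probe sets, and ran from -0.106 to 0.0610 with an array left out. With an array left out the other members ran from -0.28 to -0.06 for Nqo1, -0.38 to -0.06 for Gclc, -0.35 to -0.13 for Gclm, 0.23 to 0.56 for Hmox1, 0.18 to 0.51 for Srxn1 and 0.03 to 0.40 for Osgin1. Array weights called 12 genes, among them 1 of the pathway lists, Syvn1. Leaving out an array called 0 to 3 genes, 2 when it was replicate 3 of Balb/c and 3 when it was replicate 1 of Balb/cBy, none of them a member or in a pathway list. The cause was not tested. Filters on low values left out Slc7a11 at the 25th percentile and also Nqo1 at the median. The replicate block gave 0 calls and 511 genes at an unadjusted p under 0.05, against 833 without it. Arrays with the same number had correlations of their deviations of -0.32, -0.20 and -0.23, and those with different numbers had 0.02 to 0.22. Deviations from a mean of 3 arrays are tied to each other. These correlations therefore cannot decide whether the number marks a pairing or a batch. The precision rests on 3 arrays per strain.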
